A study of Homo sapiens with 8 samples.

Results

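The expression of IDO1 and the other enzymes of the kynurenine pathway was followed through 4 groups of human cells. The members were chosen by symbol, as the rows of IDO1, IDO2, TDO2, AFMID, KMO, KYNU, HAAO and QPRT in the deposited expression values, and these were 8 of the 60558 genes listed. All libraries came from 2D human intestinal epithelial cells (hIECs), made by differentiating the established human embryonic stem cell line H9. The 4 groups held 2 libraries each, and in all groups the labels give a treatment of 10 days. Normal hIECs (NT) were the control, and PM10 denotes normal hIECs exposed to particulate matter 10. Inflamed hIECs (IT) received, per the study's methods, 50 ng/ml interferon γ (IFNγ) and 50 ng/ml tumor necrosis factor α (TNFα), and IT-PM10 denotes inflamed hIECs exposed to PM10. Exposure to PM10 was at 100 μg/ml and covered the final 7 days. The cytokines were always given together, so the response to IFNγ and the response to TNFα cannot be told apart. One stem cell line was used, and the labels do not say whether the 2 libraries of a group came from separate cultures, so p-values measure the spread between these libraries, which may be technical.

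The kynurenine pathway breaks down tryptophan and ends in the synthesis of NAD. IDO1, IDO2 and TDO2 carry out the first step, the opening of the tryptophan ring to N-formylkynurenine, and AFMID releases kynurenine from it. KMO and KYNU then act on kynurenine, HAAO turns 3-hydroxyanthranilate into the precursor of quinolinate, and QPRT makes nicotinic acid mononucleotide from quinolinate. IDO1 is a classic target of IFNγ that is induced in the inflamed intestine, whereas TDO2 is best known from the liver.

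The hIEC label was checked against cell type markers. Of 12 intestinal epithelial markers, 9 were listed at 0 in all 8 libraries, among them CDX2, VIL1, MUC2, LYZ, CHGA and SI. The stem cell marker LGR5 reached 2.01 to 8.28 FPKM (fragments mapped to a gene, scaled by transcript length and by all fragments mapped in the library), while EPCAM stayed at or under 0.622 FPKM. All 10 mesenchymal markers were detected, with summed levels of 3636 to 4357 FPKM. The marker levels thus go against an epithelial identity, and hIEC is used below as the label's name only. Markers of cells known to express pathway enzymes were low. Macrophage and dendritic cell markers summed to 4.76 to 4.89 FPKM in NT and 3.99 to 4.47 FPKM in IT. The sums were 1.74 to 2.49 FPKM in PM10 and 4.61 to 4.99 FPKM in IT-PM10. Of these 10 markers, 4 were detected, and CD14, CSF1R, ITGAX, ITGAM, CD163 and TYROBP were at 0 in every library. The detected markers moved in different directions. FCER1G measured 1.02 and 1.17 FPKM in NT and 3.59 and 3.67 in IT. AIF1 measured 2.84 and 2.74 FPKM in NT and 0 and 0.463 in IT, and PTPRC was at 0 with cytokines. CD68 measured 0.399 and 0.333 FPKM in IT and 1.11 and 1.83 in IT-PM10. Of 7 hepatocyte markers, ALB, APOA1, TTR, F2 and HNF4A were at 0 in every library, and all 7 were at 0 in the 4 libraries with cytokines.

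FPKM values hold no read counts. Each library has a smallest value above 0, which lay between 0.164 and 0.228 FPKM. Taking it as the point where a transcript is covered at a mean depth of 1, a level of 1 FPKM stood for a mean depth of 4.38 to 6.11. The NT libraries stood apart, since the median absolute difference between replicates was 0.124 on the log2(FPKM + 1) scale in NT and 0.0686 to 0.0754 in the other groups. Mitochondrially encoded genes took 17.02% and 24.2% of the summed FPKM in the NT libraries, and 15.5% to 20.4% in the other 6.

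Promoter sequences are shown for KYNU and TDO2, the members with the most variable and the most PM10-responsive levels in inflamed hIECs, and for WARS1, the tryptophanyl-tRNA synthetase gene that uses the same amino acid. The genes were picked for this after their values were seen. Each window holds 250 bases before and 50 bases from the RefSeq start site (GRCh38.p14) and was searched on both strands for the GAS motif TTCNNNGAA, known from promoters that respond to IFNγ, and the core of the aryl hydrocarbon receptor element, GCGTG. Capitals mark the matches.
KYNU, chr2:142877414-142877713, plus strand: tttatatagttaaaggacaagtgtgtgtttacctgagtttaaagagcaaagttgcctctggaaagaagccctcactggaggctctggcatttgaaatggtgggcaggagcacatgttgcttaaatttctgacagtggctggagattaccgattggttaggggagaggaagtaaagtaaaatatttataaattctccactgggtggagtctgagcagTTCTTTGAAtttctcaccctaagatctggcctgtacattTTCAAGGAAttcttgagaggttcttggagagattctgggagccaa
TDO2, chr4:155903446-155903745, plus strand: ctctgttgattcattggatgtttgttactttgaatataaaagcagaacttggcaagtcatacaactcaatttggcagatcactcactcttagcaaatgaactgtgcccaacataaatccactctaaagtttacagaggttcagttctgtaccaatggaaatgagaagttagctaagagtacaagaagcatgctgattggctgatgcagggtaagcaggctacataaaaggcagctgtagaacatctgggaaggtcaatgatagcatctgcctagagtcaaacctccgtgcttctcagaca
WARS1, chr14:100375298-100375597, minus strand: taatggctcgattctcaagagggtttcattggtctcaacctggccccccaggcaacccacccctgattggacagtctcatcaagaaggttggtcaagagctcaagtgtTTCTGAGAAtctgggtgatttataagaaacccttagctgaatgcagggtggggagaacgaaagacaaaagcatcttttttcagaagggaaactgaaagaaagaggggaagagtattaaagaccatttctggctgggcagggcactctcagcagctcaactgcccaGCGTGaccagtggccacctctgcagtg
KYNU, on chromosome 2, held 2 GAS matches, TTCTTTGAA at -34 to -26 and TTCAAGGAA at 6 to 14, counted from 1 at the start site. TDO2, on chromosome 4, held neither motif in this window. WARS1, on chromosome 14, has 2 annotated starts in the table, and the window shown is the one of the pair that held a GAS match. It held TTCTGAGAA at -142 to -134 and GCGTG at 24 to 28, while the window at the other start held no GAS match and GCGTG on the minus strand at -175 to -171. Among 34796 RefSeq promoters of this length, 7.67% held a GAS match and 0.454% held 2 or more. GCGTG was found in 36.4%. The windows of KMO, HAAO and QPRT held neither motif, and that of AFMID held GCGTG on the minus strand at -15 to -11. Windows for 6 of the 8 members were found in the RefSeq table used.

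Of the 8 members, 6 passed the minimum of 1 FPKM in at least 2 libraries and were tested with limma among 14206 genes, where a gene is called at an adjusted p under 0.05. The comparisons share libraries (NT and IT each enter a cytokine and a PM10 comparison), so their results are not independent. IDO2 and KMO, listed at 0 throughout, were not tested. IDO1, TDO2 and KYNU passed through the libraries with cytokines alone, so a difference between groups was built into their passing. TDO2 passed through the IT libraries alone. Changes are given as differences of log2(FPKM + 1), which understate the change of weakly expressed genes, and they are not folds where a group is listed at 0.

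In inflamed hIECs, IDO1 rose from the detection limit to a level among the most abundant transcripts. It lies on chromosome 8 (39902275 to 39928790, plus strand, GRCh38). In NT, IDO1 measured 0.184 FPKM in library 1 and 0 in library 2, and both PM10 libraries were at 0. In IT it measured 128.3 and 125.4 FPKM, and in IT-PM10 it measured 147.2 FPKM in both libraries. The groups with and without cytokines did not overlap, and the order of the means was PM10, NT, IT and IT-PM10, of which the lowest pair did not differ beyond the spread of NT. The change was 6.88 in IT against NT (standard error 0.0812, limma, adjusted p = 3.45e-09) and 7.21 in IT-PM10 against PM10 (adjusted p = 2.41e-09), the 9th highest of the 14206 genes in both comparisons. By mean FPKM, IDO1 ranked 437th of 18061 detected genes in IT and 368th of 17403 in IT-PM10, at a mean depth of 562 to 698. RNA from a bulk culture does not tell more expressing cells from more IDO1 RNA per cell. A long noncoding RNA gene, AC007991.4, shares exon bases with IDO1, and the libraries carry no strand. It was at 0 without cytokines and at 0.269 to 0.561 FPKM with them.

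The other dioxygenases differed from IDO1. IDO2, next to IDO1 on chromosome 8 (39934614 to 40016392, plus strand), was at 0 in all 8 libraries. TDO2 (chromosome 4, 155854738 to 155920406, plus strand) measured 0.246 and 0 FPKM in NT, 0 in both PM10 libraries, 3.10 and 2.54 FPKM in IT, and 0.655 and 0.679 FPKM in IT-PM10. The 4 libraries with cytokines were all above the 4 without, and IT was above IT-PM10 with no overlap. TDO2 rose by 1.77 in IT against NT (standard error 0.133, limma, adjusted p = 3.06e-05) and by 0.74 in IT-PM10 against PM10 (adjusted p = 0.00198). The first of these changes ranked 206th and the other 1219th among the tested genes. Even in IT the TDO2 level stood at a mean depth of only 12.1 to 13.6, and in IT-PM10 at 3.11 to 3.20.

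**Figure D1:**
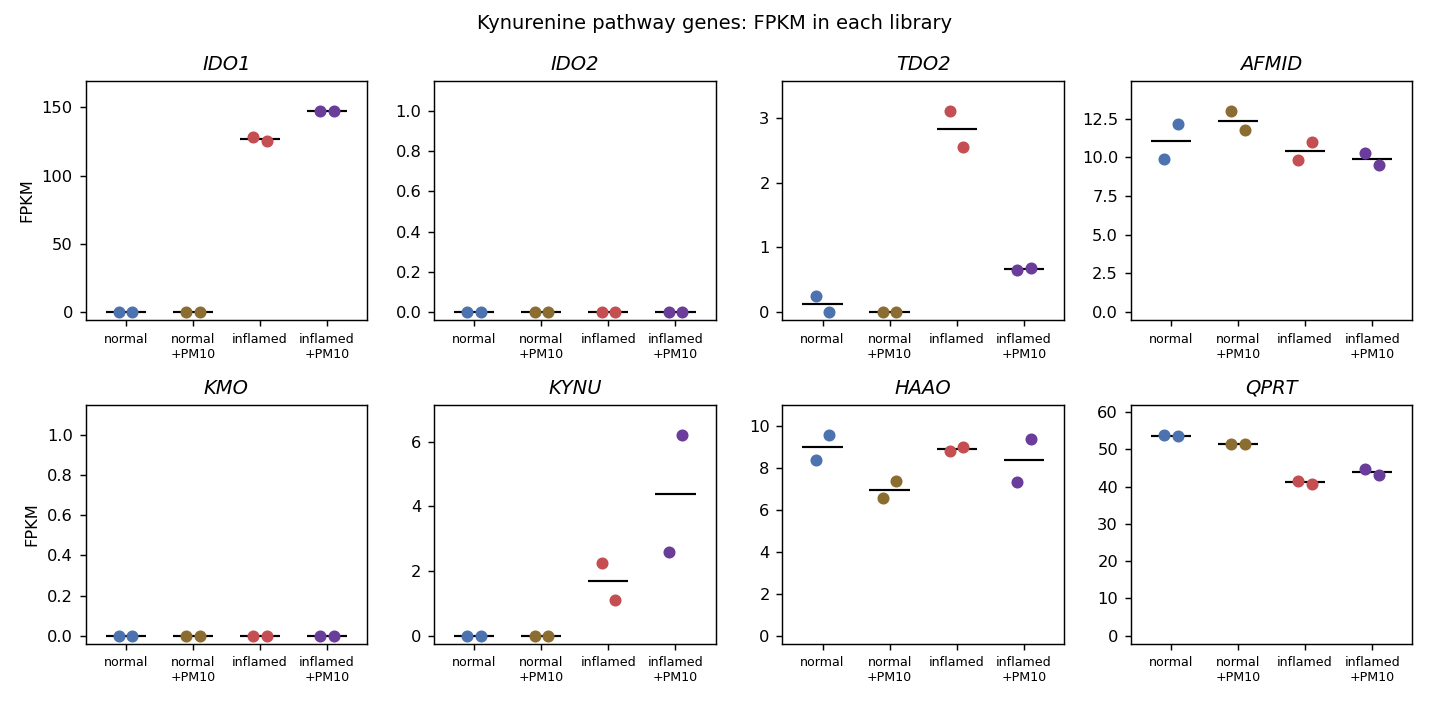
FPKM (vertical axis, linear, own scale per gene) of the 8 kynurenine pathway genes in normal, normal +PM10, inflamed and inflamed +PM10 hIECs; each point is 1 of 2 libraries and each bar the group mean. IDO1 stands at 125 to 147 FPKM in the 4 inflamed libraries and at or near 0 in the others, while IDO2 and KMO are at 0 throughout.

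AFMID, the kynurenine formamidase of the second step (chromosome 17, 78187358 to 78207702, plus strand), was expressed at a similar level in every group. It measured 9.92 and 12.1 FPKM in NT, 12.99 and 11.75 in PM10, 9.80 and 11 in IT, and 10.3 and 9.51 in IT-PM10. NT and IT overlapped, and their difference was -0.07 (95% interval -0.32 to 0.17, limma, adjusted p = 0.577). With PM10 present in both groups, the cytokine libraries lay below, by -0.29 (adjusted p = 0.0386). That call was lost without either PM10 library or either IT-PM10 library, with adjusted p-values of up to 0.182.

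KMO, the flavin monooxygenase that makes 3-hydroxykynurenine (chromosome 1, 241532134 to 241595642, plus strand), was at 0 in all 8 libraries. OPN3, which shares exon bases with KMO, measured 3.996 to 5.10 FPKM. KYNU, the kynureninase (chromosome 2, 142877657 to 143055833, plus strand), was at 0 in the 4 libraries without cytokines. It measured 2.26 and 1.11 FPKM in IT and 2.58 and 6.21 FPKM in IT-PM10. Each library with cytokines was thus above each one without, yet the replicates lay far apart. Their gap in IT-PM10, 1.01 on the log2 scale, was matched or exceeded by 0.408% of tested genes, and the gap in IT, 0.63, by 1.34%. KYNU rose by 1.39 in IT against NT (standard error 0.321, limma, adjusted p = 0.00789) and by 2.35 in IT-PM10 against PM10 (adjusted p = 0.000475). Without IT library 1 the first change was 1.08 with an adjusted p of 0.0526.

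The remaining steps to NAD were expressed in all groups. HAAO (chromosome 2, 42767089 to 42792593, minus strand) measured 8.36 and 9.56 FPKM in NT, 6.54 and 7.36 in PM10, 8.79 and 8.96 in IT, and 7.31 and 9.38 in IT-PM10. NT and IT overlapped, with a difference of -0.01 (95% interval -0.28 to 0.26, limma, adjusted p = 0.950). In IT-PM10 against PM10 the difference was 0.23 (95% interval -0.04 to 0.50, adjusted p = 0.121), and without IT-PM10 library 1 it was 0.39 with an adjusted p of 0.0226. QPRT, the quinolinate phosphoribosyltransferase (chromosome 16, 29663279 to 29698699, plus strand), was the most abundant member in normal hIECs. It measured 53.9 and 53.6 FPKM in NT, 51.5 and 51.4 in PM10, 41.6 and 40.6 in IT, and 44.8 and 43.2 in IT-PM10. All 4 libraries with cytokines were below all 4 without. QPRT fell by 23.5% in IT against NT, a change of -0.38 (standard error 0.0443, limma, adjusted p = 0.000288), and by 14.4% in IT-PM10 against PM10 (change -0.22, adjusted p = 0.00338).

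In number, 4 members were called in IT against NT (IDO1, TDO2 and KYNU higher, QPRT lower), where 56.2% of the tested genes were called. In IT-PM10 against PM10, AFMID joined these 4, and 65.4% of the tested genes were called. These counts are not set apart from those of genes at large, and what distinguishes IDO1 is the size of its change. The summed FPKM of the 8 members was 73.9 ± 1.86 (SD, n = 2) in NT, 70.8 ± 0.359 in PM10, 192 ± 2.99 in IT and 214.5 ± 2.40 in IT-PM10. IDO1 made up at most 0.254% of this sum in NT, 66.1% to 66.2% in IT and 68.1% to 69.1% in IT-PM10, whereas QPRT was the largest member in every library without cytokines.

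**Figure D2:**
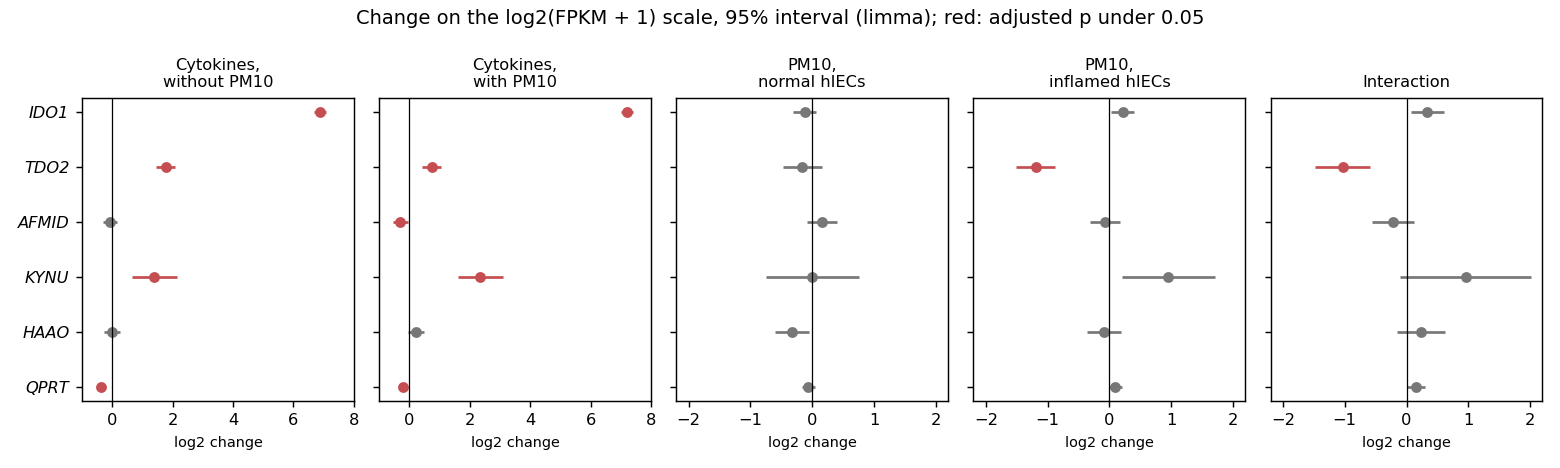
Differences of log2(FPKM + 1) with 95% intervals from limma (horizontal axes, on different ranges for the cytokine and the PM10 panels) for the 6 members tested; red marks an adjusted p under 0.05. IDO1 changed by 6.88 and 7.21 with cytokines, and TDO2 by -1.19 with PM10 in inflamed hIECs.

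With PM10 in normal hIECs none of the 6 members tested was called, while 9.23% of the tested genes were called in that comparison. Before adjustment, 1 of the 6, HAAO, passed 0.05 in limma. HAAO was lower in both PM10 libraries than in both NT libraries, by -0.325 (95% interval -0.60 to -0.05, limma, adjusted p = 0.115). IDO1, TDO2 and KYNU were not detected at this depth in either PM10 library.

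In inflamed hIECs, PM10 lowered TDO2, and 15.2% of the tested genes were called. TDO2 fell by 76.4% in FPKM, with ratios of 0.211 to 0.267 over the 4 pairs of libraries, and the change was -1.19 (95% interval -1.51 to -0.88, limma, adjusted p = 0.00204). It was the 41st lowest change among the 14206 genes. TDO2 reached the minimum of 1 FPKM in the IT libraries only, so a higher level in IT than in IT-PM10 was built into its passing. With a pseudocount of 0.1 in place of 1, the call was lost (adjusted p = 0.0584). TDO2 was the member called, and IDO1 and KYNU moved the other way without passing the test.

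IDO1 was higher in both IT-PM10 libraries (147.2 FPKM) than in both IT libraries (125.4 and 128.3 FPKM), by 16.01%. The difference was 0.21 (95% interval 0.02 to 0.40, limma, adjusted p = 0.119). When an NT library was left out, which alters the shared estimate of the spread and not the difference itself, the adjusted p was 0.0177 (without NT library 1) or 0.0175 (without NT library 2). Without IT library 2 it was 0.336. KYNU was higher in both IT-PM10 libraries than in both IT libraries, but the ratios of single libraries ran from 1.14 to 5.60. The difference was 0.96 (95% interval 0.20 to 1.71, adjusted p = 0.0858), the 54th highest among the tested genes, and without IT-PM10 library 1 it was 1.46 (adjusted p = 0.0279). AFMID, HAAO and QPRT differed by -0.06, -0.09 and 0.10, with adjusted p-values of 0.710, 0.635 and 0.181.

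The interaction asks whether PM10 acted differently in inflamed and in normal hIECs. TDO2 was called (-1.04, 95% interval -1.48 to -0.59, limma, adjusted p = 0.0247), beside 6.6% of the tested genes. In the normal hIECs, with or without PM10, TDO2 was at 0.246 FPKM or less, with 3 of these 4 libraries at 0, so a fall with PM10 could not be measured there, and the interaction adds little to the change in inflamed hIECs. The call was lost with pseudocounts of 0.1 (adjusted p = 0.474) and 0.5 (0.0579), and without either PM10, either IT or either IT-PM10 library, with adjusted p-values of up to 0.0868. For IDO1 the interaction was 0.33 (95% interval 0.07 to 0.60, limma, adjusted p = 0.136), and without NT library 2 it was 0.46. The 0.46 rests on NT library 1, where IDO1 was at 0.184 FPKM, a mean depth of 1.13. In NT library 2 and both PM10 libraries IDO1 was at 0. For KYNU the interaction was 0.96 (95% interval -0.11 to 2.02, limma, adjusted p = 0.257), with KYNU at 0 in all 4 normal libraries. For both genes, too, a fall with PM10 in normal hIECs could not be measured.

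The signal that leads from the cytokines to IDO1 was followed in 16 genes. In IT against NT, 10 were higher, 2 were lower and 4 were not called, with a median change of 1.015 beside -0.03 over all tested genes. Of all tested genes, 25.9% were higher and 30.3% lower. The interferon regulatory factor genes IRF1 (change 4.15, limma, adjusted p = 1.65e-07) and IRF8 (change 3.7995, adjusted p = 2.54e-08) rose. IRF1 measured 3.09 to 4.205 FPKM in NT and 81.2 to 81.3 in IT, while IRF8 measured under 1 FPKM in NT and 24.0 to 24.7 in IT. Since IRF8 was under 1 FPKM in all 4 libraries without cytokines, it passed the minimum through those with cytokines alone. SOCS3, a feedback inhibitor of cytokine receptors, fell by 0.84 (adjusted p = 4.41e-05), and IFNGR2, a subunit of the IFNγ receptor, by 0.26 (adjusted p = 0.0194, lost without either IT library, 0.0981 at most). With PM10 in inflamed hIECs, 1 of this list was higher, 1 lower and 14 not called, where 15.2% of all tested genes were called. TNFAIP3, an inhibitor of NF-κB signaling, was higher by 0.38 (limma, adjusted p = 0.0112) and SOCS3 lower by 0.44 (adjusted p = 0.0072). The TNFAIP3 and SOCS3 calls were lost with 3 and 2 libraries left out in turn. IRF1 was at 74.5 and 76.0 FPKM in IT-PM10, a change of -0.11 from IT (adjusted p = 0.532). In normal hIECs, PM10 came with 4 called higher and none lower, where 5.51% of all tested genes were higher and 3.72% lower. Among them were IRF1 (0.44, limma, adjusted p = 0.0488) and NFKB1 (0.32, adjusted p = 0.0212). The IRF1 and NFKB1 calls were lost on leaving out 7 and 5 of the 8 libraries in turn.

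Of other genes that use tryptophan or act on amines made from it, WARS1, IL4I1 and MAOB rose in IT. Of 11 genes listed, 6 were at 0 in all libraries (TPH1, TPH2, DDC, ASMT, AANAT and INMT, which serve serotonin, melatonin and tryptamine metabolism), and 3 of the 5 tested were higher in IT, none lower, where 25.9% of all tested genes were called higher. WARS1, which loads tryptophan onto its tRNA, measured 74.3 and 77.8 FPKM in NT, 118 FPKM in both PM10 libraries, 536 and 543 in IT, and 574 and 554 in IT-PM10. Its level was above that of IDO1 in each library. WARS1 rose by 2.81 in IT against NT (limma, adjusted p = 1.20e-08) and by 0.63 with PM10 in normal hIECs (adjusted p = 0.000863), but changed by 0.06 with PM10 in inflamed hIECs (95% interval -0.04 to 0.17, adjusted p = 0.357). IL4I1, an oxidase of aromatic amino acids, was at 0.298 to 0.360 FPKM in NT and 7.08 to 7.81 in IT, a change of 2.67 (adjusted p = 3.33e-07). It too passed the minimum through libraries with cytokines alone. It changed by a further 0.34 with PM10 in inflamed hIECs (adjusted p = 0.0314, lost on leaving out 6 of the 8 libraries in turn, 0.166 at most). MAOB, a monoamine oxidase, moved in the same directions as TDO2, with 2.90 and 2.47 FPKM in NT, 9.47 and 9.39 in IT, and 3.83 and 4.25 in IT-PM10. It rose by 1.502 with cytokines (adjusted p = 5.95e-06) and fell by 1.05 with PM10 in inflamed hIECs (adjusted p = 0.000546). MAOA, its paralog, changed by 0.36 there (adjusted p = 0.0225, lost without either IT or either IT-PM10 library, 0.118 at most).

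**Figure D3:**
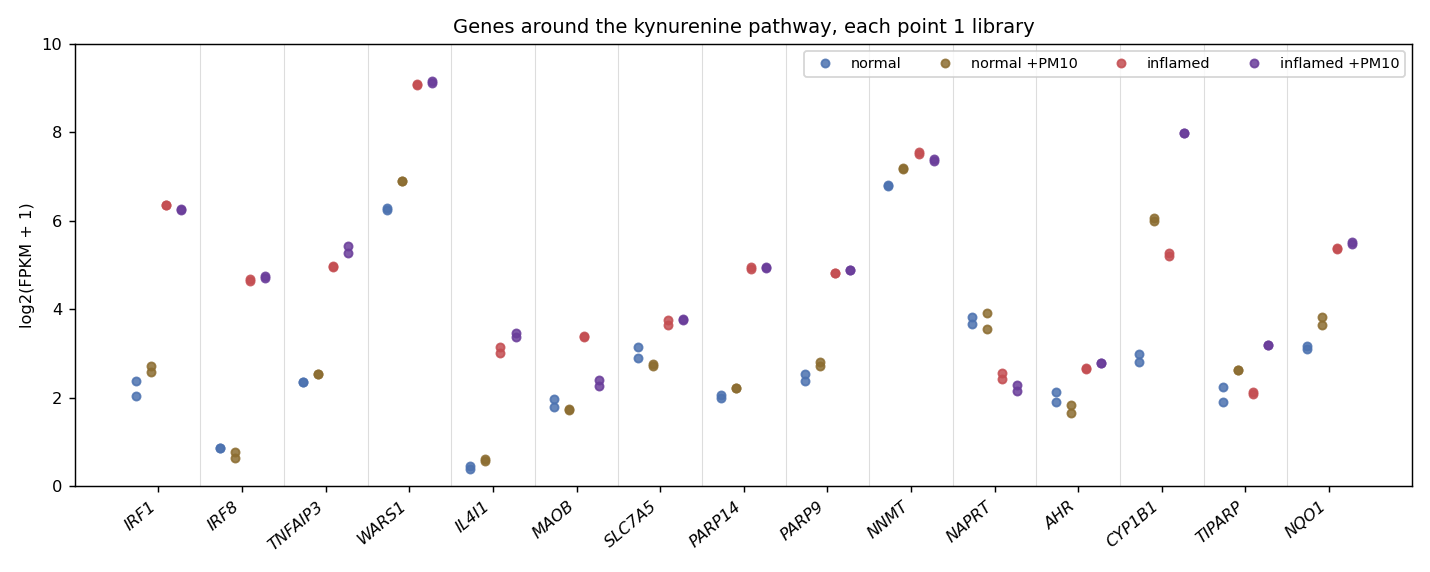
Levels of genes around the pathway as log2(FPKM + 1) (vertical axis) in each of the 8 libraries, coloured by group. IRF1, IRF8, WARS1 and IL4I1 stand higher in the inflamed libraries, and CYP1B1 stands higher with PM10 in both backgrounds.

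Of 4 amino acid transporters tested, SLC7A5, the light chain of the main tryptophan and kynurenine carrier, rose by 0.67 in IT against NT (6.50 and 7.87 FPKM in NT, 11.6 and 12.5 in IT, limma, adjusted p = 0.000449). SLC7A8 and SLC43A1, which also carry large neutral amino acids, fell by 0.72 and 0.67 (adjusted p = 0.000172 and 0.000322). Of these 4, 1 was thus higher, 2 were lower and 1 was not called, where 25.9% of all tested genes were higher and 30.3% lower. SLC16A10, SLC6A14 and SLC6A19 were at 0 in every library. PM10 in inflamed hIECs lowered SLC43A1 further, by 0.43 (adjusted p = 0.014, lost without either IT library or IT-PM10 library 1, 0.0895 at most).

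Genes that answer amino acid shortage moved in both directions. In IT against NT, 5 of 10 were higher and 2 lower, with a median of 0.22, where 25.9% of all tested genes were higher and 30.3% lower. SLC7A11, the cystine carrier, which passed the minimum through libraries with cytokines alone, rose by 1.03 (limma, adjusted p = 6.37e-05), the glutathione-degrading enzyme CHAC1 by 0.61 (adjusted p = 0.00488) and asparagine synthetase ASNS by 0.50 (adjusted p = 0.0249). The serine synthesis enzyme PHGDH fell by 0.82 (adjusted p = 1.38e-05) and the stress factor DDIT3 by 0.59 (adjusted p = 0.0137). ASNS and DDIT3 lost their calls on leaving out 3 and 2 of the libraries in turn (0.136 and 0.0595 at most). With PM10 in inflamed hIECs, 5 of the 10 were lower and 1 was higher, where 15.2% of all tested genes were called (9.02% lower). The pseudokinase TRIB3 fell by 0.83 (adjusted p = 0.00218) and DDIT3 by 0.64 (adjusted p = 0.0339), while EIF2AK4, which encodes the GCN2 kinase, rose by 0.30 (adjusted p = 0.0333). The calls of DDIT3 and EIF2AK4 were each lost with 6 of the 8 libraries left out in turn. In normal hIECs, PM10 lowered PSAT1 by 0.49 (adjusted p = 0.00796) and PHGDH by 0.33 (adjusted p = 0.0136), which neighbour each other in serine synthesis; the first call was lost without 1 library (PM10 library 1, 0.067) and the other without either PM10 library (0.0925 at most).

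Downstream of QPRT, 10 genes of NAD synthesis and salvage were tested, of which 2 were higher and 4 lower in IT against NT (median 0.04). These 6 of 10 lie near the 56.2% called among all tested genes. NNMT, which methylates nicotinamide, rose by 0.73 (111 and 110 FPKM in NT, 187 and 181 in IT, limma, adjusted p = 8.94e-06), and NAMPT, which salvages it, by 0.56 (adjusted p = 0.000864). NAPRT, the enzyme that uses nicotinic acid, fell by 1.26, from 11.8 to 13.1 FPKM to 4.32 to 4.88 FPKM (adjusted p = 0.000115). NMNAT2 and NMNAT3, which complete the dinucleotide, fell by 0.91 and 0.46 (adjusted p = 0.000286 and 0.0257, that of NMNAT3 lost without either NT library or IT library 1, 0.140 at most). NMNAT2 passed the minimum through libraries without cytokines alone. The summed level of 6 neuronal markers, of which ELAVL3 and ELAVL4 were at 0 in all libraries, was also lower with cytokines. It was 195 to 203 FPKM in NT and 116 to 117 FPKM in IT. STMN2, TUBB3 and SNAP25 were lower in IT, while SYT1 was higher (2.77 and 2.57 FPKM in NT, 5.12 and 5.01 in IT). The part of these markers in the falls of NMNAT2 and NMNAT3 was not tested. PM10 raised NNMT by 0.38 in normal hIECs (adjusted p = 0.00409), and in inflamed hIECs NNMT fell by 0.16 (adjusted p = 0.0462, lost with 6 of the 8 libraries left out in turn). The NAMPT change with PM10 in normal hIECs was 0.36 (adjusted p = 0.0388, lost with 7 left out in turn, 0.170 at most).

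Of 19 NAD-consuming enzymes tested, 8 were higher and 2 lower in IT against NT (median 0.125). These 10 of 19 also lie near the 56.2% of all tested genes. PARP14 rose by 2.90 (2.98 and 3.19 FPKM in NT, 29.1 and 30.1 in IT, limma, adjusted p = 3.16e-08), PARP9 by 2.38 (adjusted p = 2.39e-07) and PARP12 by 2.18 (adjusted p = 4.14e-07). All 3 are interferon-induced ADP-ribosyltransferases. The mitochondrial deacylase SIRT3 fell by 0.67 (adjusted p = 0.00042) and SIRT2 by 0.40 (adjusted p = 0.00316). TIPARP, a target of the aryl hydrocarbon receptor, differed by 0.04 in IT (adjusted p = 0.788), and rose with PM10 by 0.55 in normal hIECs (adjusted p = 0.0247, lost with 6 libraries left out in turn, 0.123 at most) and by 1.09 in inflamed hIECs (3.37 and 3.21 FPKM in IT, 8.13 and 8.11 in IT-PM10, adjusted p = 0.00137). BST1 rose by 0.56 and SIRT3 fell by 0.34 with PM10 in inflamed hIECs (adjusted p = 0.0252 and 0.0371, lost with 4 and 5 libraries left out in turn). BST1 measured 0.776 and 0.757 FPKM in IT and 1.68 and 1.52 FPKM in IT-PM10. It reached 1 FPKM only in NT library 2 and both IT-PM10 libraries, so a higher level in IT-PM10 was built into its passing. PARP9 changed by 0.31 with PM10 in normal hIECs (adjusted p = 0.0332, lost with 7 left out in turn).

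Kynurenine is a ligand of the aryl hydrocarbon receptor, and so are constituents of combustion particles. In IT against NT, 3 of the 4 genes tested were higher and none was lower, where 25.9% of all tested genes were higher and 30.3% lower. AHR, the receptor gene, rose by 0.64 (3.38 and 2.75 FPKM in NT, 5.36 and 5.28 in IT, limma, adjusted p = 0.00111). CYP1B1, a target of the receptor, measured 6.91 and 5.95 FPKM in NT, 65.7 and 62.8 in PM10, 37.6 and 35.7 in IT, and 254 FPKM in both IT-PM10 libraries. The 4 groups of CYP1B1 did not overlap, and each treatment raised it in the presence of the other. The change was 2.35 with cytokines (adjusted p = 2.98e-07), 3.14 with PM10 in normal hIECs (adjusted p = 3.82e-06) and 2.76 with PM10 in inflamed hIECs (adjusted p = 9.78e-06). NQO1, a quinone reductase, rose by 2.24 with cytokines (adjusted p = 4.12e-07) and by 0.60 with PM10 in normal hIECs (adjusted p = 0.00483). The interaction for CYP1B1 was -0.38 (adjusted p = 0.0648). Other targets of the receptor did not rise in IT. TIPARP differed by 0.04 from NT (limma, adjusted p = 0.788), and CYP1A1 was at 0 in both NT and both IT libraries. Whether kynurenine acted on the receptor in these cells was not tested.

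The side branches of the pathway and partners of IDO1 were followed as well. Of 4 aminotransferases tested, KYAT3 alone was called in IT, lower by 0.35 (limma, adjusted p = 0.00256), where 56.2% of all tested genes were called. ACMSD, which diverts the pathway from NAD, was at 0 throughout. Of 6 partner genes tested, 2 were higher and 3 lower in IT, where 25.9% of all tested genes were higher and 30.3% lower. CYB5A, the cytochrome that keeps IDO1 reduced, rose by 0.61 (adjusted p = 0.00205), and the phosphatase gene PTPN11 rose by 0.53 (adjusted p = 0.00226). POR fell by 0.62 (adjusted p = 6.86e-05), BIN1 by 0.61 (adjusted p = 0.000203) and HMOX1 by 0.35 (adjusted p = 0.00742). PTPN11 rose by 0.38 with PM10 in inflamed hIECs (adjusted p = 0.0352, lost with 6 libraries left out in turn), and HMOX1, a heme oxygenase, by 0.59 with PM10 in normal hIECs (adjusted p = 0.0083, lost without PM10 library 1, 0.0696). Several of the genes named share exon bases with another expressed gene in these unstranded libraries, and their values are uncertain to that extent. Such pairs were PARP9 with DTX3L, IL4I1 with ATF5 and NUP62, WARS1 with WDR25, IFNGR2 with TMEM50B, POR with TMEM120A and IRF1 with IRF1-AS1. CYP1B1 also shared them with CYP1B1-AS1 and RMDN2, KYAT3 with RBMXL1, SIRT2 with NFKBIB, SIRT3 with RIC8A, and DDIT3 with MARS1 and MBD6. PTPN11 did so with RPL6, TNFAIP3 with WAKMAR2, NMNAT3 with COPB2-DT and NMNAT2 with AL354953.1, while NAMPT, NAPRT and ASNS overlap unnamed genes. AL354953.1 was at 0 in NT and PM10 and averaged 1.19 FPKM in IT and 3.23 FPKM in IT-PM10.

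The genes whose profile was most like that of IDO1 were found as those with the smallest root mean square difference of log2(FPKM + 1) over the 8 libraries, each gene centred on its own mean. They were GBP5 (0.129), IFI27 (0.197), OR2I1P (0.217), UBD (0.269) and CCL5 (0.271). Being picked by their profile, these genes share the rise of IDO1 with cytokines by construction. GBP5, OR2I1P, UBD and CCL5 also passed the minimum through libraries with cytokines alone. GBP5 was at 0 without cytokines and averaged 128 FPKM in IT and 122 FPKM in IT-PM10, where IDO1 averaged 127 and 147 FPKM. CCL5 was also at 0 without cytokines and averaged 117 and 211 FPKM. For KYNU the nearest were CDCP1 (0.306), LCP1 (0.308), BANCR (0.317), CPM (0.323) and DCBLD2 (0.329), all at least 0.306 away, whereas the nearest 5 genes of IDO1 were all within 0.271. CDCP1 and BANCR were, like KYNU, at 0 in the libraries without cytokines. Of these 10 neighbours, GBP5, OR2I1P, UBD, LCP1, CPM and DCBLD2 share exon bases with other genes. OR2I1P and UBD overlap each other, so in these unstranded libraries they may not be separate signals. These lists depend on the pseudocount, since with 0.1 in place of 1 the list of each gene kept 2 of its 5 names (GBP5 and OR2I1P, and CDCP1 and BANCR).

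**Figure D4:**
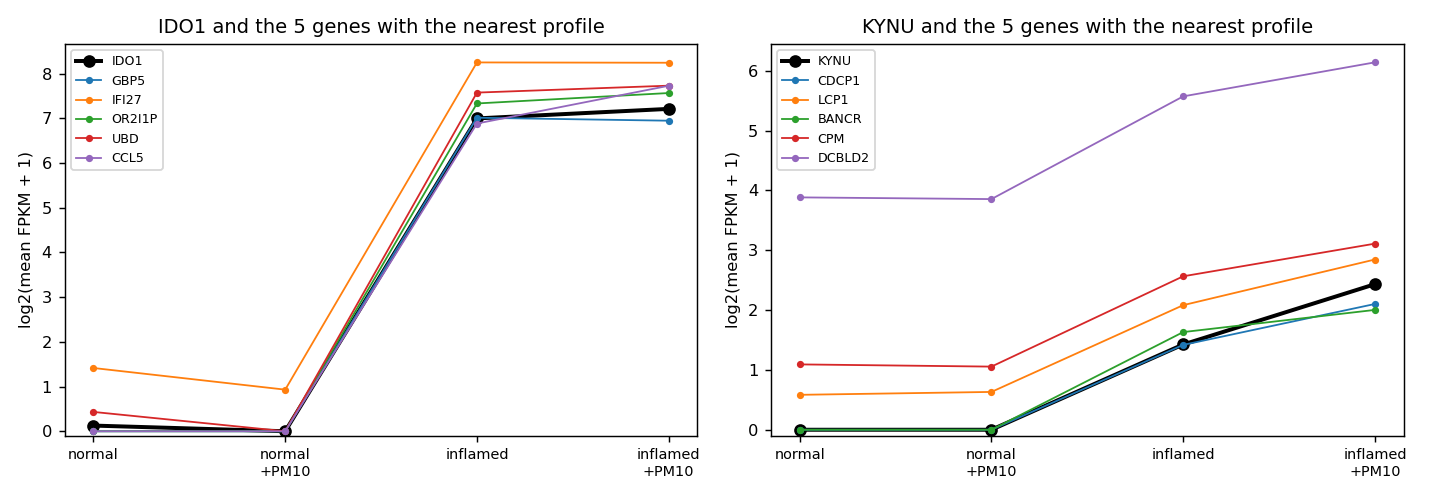
Group means as log2(mean FPKM + 1) (vertical axis) over the 4 groups for IDO1 and for KYNU (black), each with the 5 genes of nearest profile. The IDO1 neighbours, picked for their likeness to IDO1, stand at group means of at least 117 FPKM with cytokines. Those of KYNU reach group means of at most 69.5 FPKM.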

How the data were processed

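RNA-seq of 8 libraries in 4 groups of 2 was used. The authors prepared poly-A selected, non-stranded libraries, trimmed reads with Cutadapt and Sickle, aligned them to hg38 with HISAT2 and estimated FPKM with StringTie; the annotation release is not given in the sources used here. The deposited FPKM values, 1 per gene and library, hold no counts, so the read depth of a library is unknown beyond its lowest value, and no count test was run. Positions and exon overlaps came from GENCODE 44, in which 99.5% of the identifiers were found.

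The members and gene lists were chosen with earlier results of these data known. limma 3.58.1 (R 4.3.3), with a variance trend, was fitted to log2(FPKM + 1) of all 8 libraries over the 14206 genes that reached 1 FPKM in 2 or more libraries. The 5 comparisons named in the text were made, and p-values, all two-sided, were adjusted by Benjamini-Hochberg within each. Tested on simulated data for inflamed against normal hIECs over 14206 genes, the fit called 85 of 100 genes changed by 1 and 100 of 100 changed by 2 on the log2 scale, and 6.57% of its calls were false. Only these genes were changed, with independent normal noise and no shift of whole libraries, whereas 56.2% of genes were called in the real comparison. The simulated rates are therefore not error rates of the calls reported. All 8 members are named, and from each list up to 3 called genes per direction for the cytokines and up to 2 for PM10, with the largest changes, beside AHR, IRF1, WARS1 and NAMPT and the 5 nearest profiles of IDO1 and KYNU. Alternatives covered the pseudocount (0.1, 0.5), filters (none, mean of at least 5 FPKM), scaling, the trend, the groups fitted, a replicate block and each library left out. A gene that the rule names, counted within its list, is not reported here, SIRT6 was not analysed here, and AHRR, with 2 rows, was not tested. Python 3.11.15 and matplotlib 3.10.9 were used. Replicate numbers did not pair the libraries: deviations of libraries with the same number correlated at -0.00151 to 0.0793.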

Additional observations from a re-analysis of the deposited data

Results flagged for a closer look

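In all, 10 of the genes named were called by limma's interaction test of PM10 in inflamed against normal hIECs over 14206 genes, given here as the difference of the 2 PM10 changes on the log2(FPKM + 1) scale. Of all tested genes, 6.6% were called. Apart from TDO2, each of the 10 met the naming rule through a called PM10 change in normal or in inflamed hIECs. That change enters the interaction, so the naming favoured a call. TDO2 gave -1.04 (adjusted p = 0.0247), with a PM10 change of -0.16 in normal and -1.19 in inflamed hIECs. TDO2 was at 0 in 3 of the 4 libraries without cytokines and at 0.246 FPKM in the other, so a fall there could not be measured and its interaction is no separate evidence of a different response. Its call was also lost with pseudocounts of 0.1 (adjusted p = 0.474) and 0.5 (0.0579). MAOB gave -0.90 (adjusted p = 0.00722), with changes of -0.15 and -1.05. Both genes were raised by the cytokines and lowered by PM10 in inflamed hIECs.

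WARS1 gave -0.56 (adjusted p = 0.00426), rising by 0.63 in normal hIECs and differing by 0.06 in inflamed hIECs. NNMT gave -0.54 (adjusted p = 0.00408), with changes of 0.38 and -0.16. HMOX1 gave -0.56 (adjusted p = 0.0323) and NQO1 gave -0.48 (adjusted p = 0.0333), with changes of 0.59 and 0.60 in normal hIECs and of 0.03 and 0.12 in inflamed hIECs. TRIB3 gave -0.68 (adjusted p = 0.0303), with changes of -0.15 and -0.83. SLC43A1 gave -0.62 (adjusted p = 0.0253), with changes of 0.19 and -0.43. BST1 gave 1.03 (adjusted p = 0.0192), with changes of -0.47 and 0.56. It passed the minimum only with the help of both IT-PM10 libraries, so a higher level in IT-PM10 than in IT was built in. MAOA gave 0.49 (adjusted p = 0.0422), with changes of -0.13 and 0.36.

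The interaction was called under all alternatives run for WARS1, NNMT (17 each) and MAOB (16). With 1 library left out in turn, the calls of TDO2, SLC43A1, TRIB3, NQO1 and HMOX1 were lost for 6 of the 8 libraries, that of MAOA for 7 and that of BST1 for 5, with adjusted p-values of up to 0.0868, 0.0938, 0.105, 0.116, 0.116, 0.132 and 0.0726. What set these genes apart was not tested.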

How the results depend on the processing

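IDO1 was called higher with cytokines under all 18 alternatives, without PM10 (6.75 to 9.56) and with it, and QPRT was called lower in IT under all 18. In IT against NT, a mean of at least 5 FPKM left 4931 genes and 2 members called, in IT-PM10 against PM10 5551 genes and 3 members, and in the PM10 comparison of inflamed hIECs and the interaction 0 members, since TDO2 and KYNU were then not tested. In normal hIECs, PM10 called 2032 genes after rescaling to genes outside mitochondrial DNA (1532 higher, 500 lower, against 783 and 528) and 23 with only the 2 groups fitted, which has fewer samples. Median centring gave 563 higher and 749 lower there. For the interaction, calls split into 300 higher and 637 lower, and with median centring into 453 and 539. In inflamed hIECs, PM10 called 0 members with a pseudocount of 0.1 and 2 with quantile normalization or only the 2 groups fitted, IDO1 being called there (0.23, adjusted p = 0.0205, and 0.21, adjusted p = 0.0208). The interaction called 0 members with a pseudocount of 0.1 or 0.5. The cause was not tested.

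HAAO in IT against NT turned to 0.025 after rescaling, to 0.0773 without NT library 2 and to 0.0029 without IT library 1, and AFMID to 0.0608 and 0.0028 without the same libraries, the lowest values being -0.0967 for HAAO and -0.2066 for AFMID with 1 library left out. In the PM10 comparison of inflamed hIECs, AFMID turned to 0.0116 without IT library 2 and HAAO to 0.071 without IT-PM10 library 1, with lowest values of -0.1399 and -0.2492. No change of these genes had been called there. With 1 library left out, genes called ranged over 194 to 2627 for PM10 in normal hIECs (194 without PM10 library 1, 2627 without NT library 1), 675 to 2992 in inflamed hIECs (675 without IT library 1) and 263 to 1266 for the interaction (263 without PM10 library 1). Members called were 1 to 2 in inflamed hIECs and 0 to 2 for the interaction. The IDO1 change with PM10 in inflamed hIECs was 0.20 to 0.23. Its interaction was 0.21 to 0.46, the highest value resting on the 0.184 FPKM of NT library 1. AFMID in IT-PM10 against PM10 lost its call in 9 of 18 alternatives.

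With the replicate block, the counts were 7957, 9264, 1051, 1966 and 762 genes and 4, 5, 0, 1 and 1 members for the 5 comparisons. AFMID lost its call in IT-PM10 against PM10 (adjusted p = 0.0504) and HAAO gained one (0.0453), and the block changed no other call of a member.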

Other observations

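Some genes of the lists were too low to be tested, and their values are given without a comparison. CYP1A1, a cytochrome P450 induced through the aryl hydrocarbon receptor, was at 0 in both NT and both IT libraries, at 0 and 0.241 FPKM in PM10, and at 0.432 and 0.515 FPKM in IT-PM10. CYP1A2 was at 0 in all 8 libraries. AHRR, the repressor of the receptor, had 2 rows; the higher of them measured 0.296 and 0.354 FPKM in NT, 0.906 and 1.11 in PM10, 0 and 0.266 in IT, and 0.499 and 0.512 in IT-PM10. GPR35, a receptor for kynurenic acid, measured 0.216 to 0.933 FPKM over the 8 libraries, with overlapping groups.

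CD38, which breaks down NAD, passed the minimum only through libraries with cytokines. It was at 0 in NT and PM10 and measured 1.09 and 0.885 FPKM in IT and 0.810 and 1.28 FPKM in IT-PM10, so that its 4 libraries with cytokines lay above the 4 without, as for KYNU.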
